A study of Mus musculus with 8 samples.

Results

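Signalling chemokine receptors were examined in mouse bone marrow progenitors with and without ACKR1. The group holds 9 genes: Cxcr2, Cxcr3, Cxcr4, Cx3cr1, Ccr1, Ccr2, Ccr3, Ccr7 and Ccr9. They were found as the probes whose RefSeq transcript belongs to one of these genes, which gave 10 of the 55681 probes on the array, 2 of them for Cx3cr1. Of the 9 genes, 8 had a probe that passed the filter on dim signal. The Ccr1 probe was not well above background on any of the 8 arrays, and Ccr1 was not tested.

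Chemokine receptors of this kind are G protein-coupled receptors on the surface of leukocytes. A bound chemokine sets off signalling through inhibitory G proteins, which steers the cell along the chemokine gradient. The receptor is then switched off and taken up by G protein-coupled receptor kinases and arrestins. ACKR1, the receptor missing in the deficient mice, is an atypical receptor that binds many inflammatory chemokines without signalling through G proteins. In bone marrow, CXCR4 with its ligand CXCL12 retains stem cells and neutrophils, CXCR2 promotes the release of neutrophils, and CCR2 the release of monocytes.

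The series compared gene expression in ACKR1-deficient and wild-type marrow. Bone marrow came from female mice aged 12 weeks that were littermates on a C57Bl/6J background, with the deficient allele backcrossed and kept through heterozygous breeding. It was stained and sorted for LSK cells, which lack lineage antigens and carry Sca1 and cKit and include the stem cells, and for granulocyte-macrophage progenitors (GMP), which lack lineage antigens and Sca1 and carry cKit, CD34 and CD16/32. The 4 groups were wild-type LSK, ACKR1-deficient LSK, wild-type GMP and ACKR1-deficient GMP, with 2 arrays in each. The labels do not say whether the 2 arrays of a group came from separate animals, so p-values measure the spread between these arrays, which may be technical, and the number of arrays limits the precision.

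All 8 arrays were on 1 slide, with the deficient samples in one column and the wild-type samples in the other, so that slide column and genotype cannot be told apart. On 7 arrays 62.5% to 73.1% of spots were well above background, and on the second deficient LSK array 34.3% were. That array had a 75th percentile signal of 24.6, against 197 to 770 on the others, and correlated with its replicate at r = 0.780 across probes. The first and second deficient GMP arrays correlated at r = 0.898, against 0.948 and 0.976 in the wild-type pairs. The Ackr1 probe was not called between genotypes in LSK (limma adjusted p = 0.954) or in GMP (1.0), though both deficient GMP arrays lay above both wild-type ones. Its mean LSK level was −0.85 ± 0.28 for the wild type and −0.77 ± 0.11 for the deficient arrays, 1 of which measured it above background (SD, n = 2). For GMP the means were −0.47 ± 0.039 and −0.12 ± 0.065. The deleted part of the gene is not given in the sources used here, so this probe does not check the labels, and deficient means labelled as deficient throughout. Of the 8 markers of each sorted population, all were well above background on 7 arrays, of both populations. Their detection thus does not tell LSK from GMP. On the second deficient LSK array Ly6a, which encodes Sca1, and Mecom, Fcgr3, Fcgr2b and Prtn3 were not well above background. Mean Ly6a was 2.81 in wild-type LSK and 2.97 in wild-type GMP, against −0.35 and 1.03 in the deficient groups. Its LSK difference of −3.16 was not called (limma adjusted p = 0.481). In LSK 7 of the 8 LSK markers were lower in the deficient arrays and 1 was higher, with 0 called.

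A level below is log2 of the probe's signal over the 75th percentile of its array, so that 0 is a signal equal to that percentile. Levels of different probes are not comparable. Differences are on the same log2 scale, and a call is an adjusted p under 0.05 in limma's moderated test over all 28088 features.

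Cxcr2 encodes the neutrophil receptor for CXC chemokines such as CXCL1 and CXCL2, and was the 1 receptor called between genotypes. In LSK, 1 of the 8 tested receptors was called higher in the deficient arrays and none lower, where 0.239% of all features were called, all of them higher. At an unadjusted p under 0.05 there were 2 receptors, Cxcr2 and Ccr2, beside 8.83% of features. Cxcr2 in LSK read −3.65 and −3.43 on the wild-type arrays against 1.30 and 0.53 on the deficient ones. In GMP it read −1.31 and −1.48 against 0.57 and 0.52. The genotypes did not overlap in either population, and every deficient array was the higher. The Cxcr2 difference in LSK was 4.46 (SE 0.629, 95% interval 3.05 to 5.86, limma adjusted p = 0.0256), or 22.0-fold. In GMP it was 1.94 (95% interval 0.54 to 3.35, limma adjusted p = 0.760), which was not called. Averaged over both populations the Cxcr2 difference was 3.20 (SE 0.445, limma adjusted p = 0.0123), again 1 receptor of 8, where 0.602% of features were called, 0.595% higher and 0.00712% lower. In a bulk sample, fewer cells of a type and less RNA per cell cannot be told apart.

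**Figure D1:**
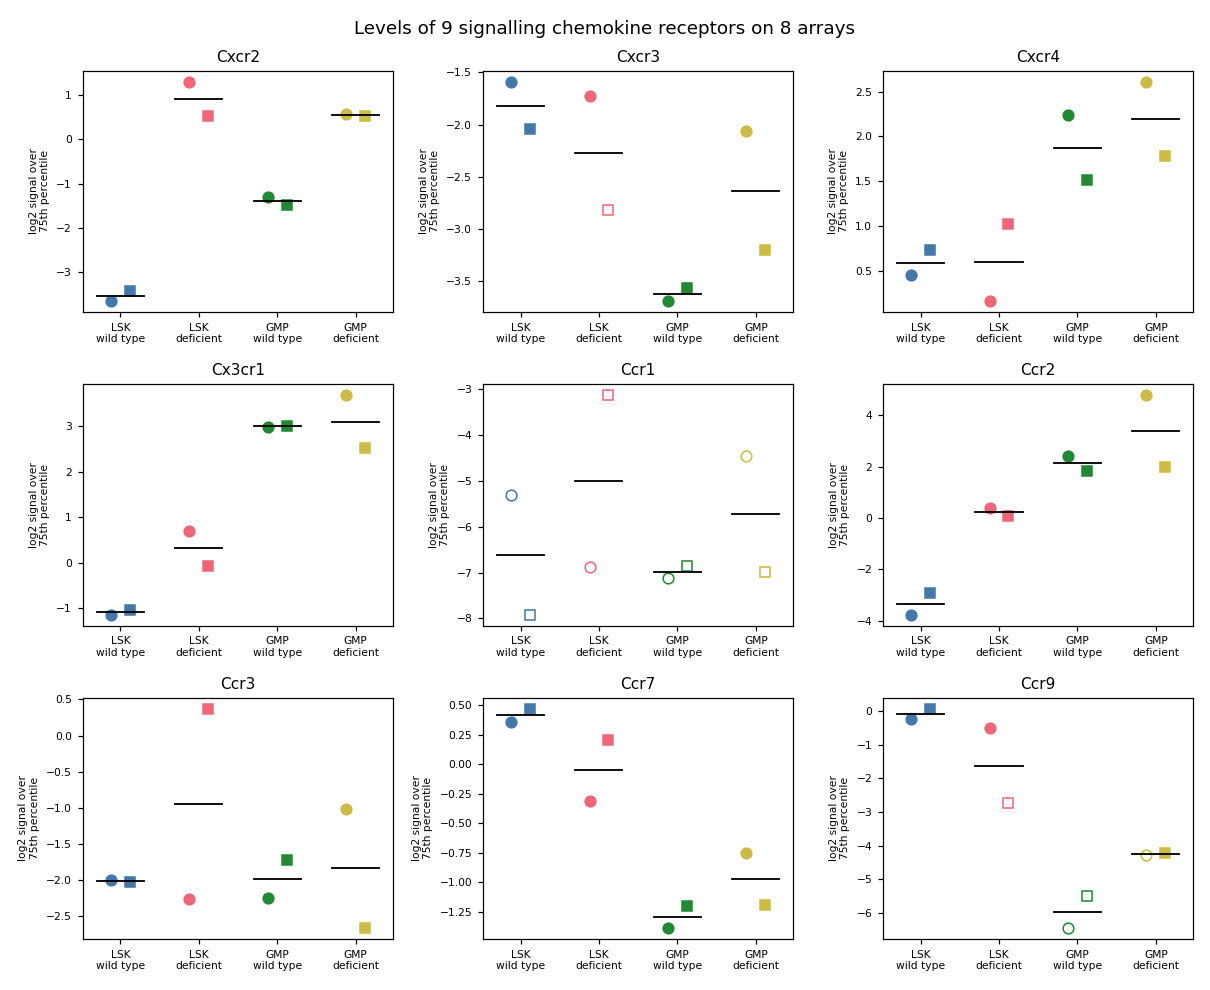
Level of each receptor on every array, 1 panel per gene, as log2 of the signal over the array's 75th percentile; circles are replicate 1, squares replicate 2, open symbols are not well above background and black lines are group means. The Cxcr2 panel shows both deficient groups above both wild-type groups, and the Ccr1 panel holds open symbols on all 8 arrays.

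The order of the Cxcr2 levels was deficient LSK and deficient GMP, whose arrays overlapped, then wild-type GMP, then wild-type LSK. Arrays in the same slide row gave deficient minus wild-type differences of 4.95 and 3.96 in LSK and of 1.88 and 2.0 in GMP. The effect in GMP was smaller than that in LSK by 2.51 on the log2 scale (95% interval of the difference −4.50 to −0.52), with an unadjusted p of 0.0184 and an adjusted p of 0.961 in limma. The difference between the populations was therefore not called.

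The LSK call for Cxcr2 was kept in 11 of 22 alternatives, with differences of 2.99 to 4.84 in all of them. It was lost without the first (limma adjusted p = 0.204) or the second (0.271) wild-type LSK array, without the second deficient LSK array (0.0862) and without either wild-type GMP array (0.0582), and under 6 other processing choices given in the closing section. The average over both populations was lost without either wild-type LSK array (adjusted p = 0.0846 and 0.0784), either wild-type GMP array (0.0665 and 0.0862) or the first deficient GMP array (0.0590).

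Markers of mature neutrophils, like Cxcr2, were higher in the deficient arrays of both populations. Of 12 markers, 11 were on the array, and 8 of the 11 were called higher in deficient LSK and 7 in deficient GMP, with none lower. Of all features 0.239% were called higher in deficient LSK and 0.146% in deficient GMP. Their summed signal, in multiples of the 75th percentile, was 3.31 and 10.5 for LSK and 8.43 and 16.9 for GMP in the wild type. The deficient arrays gave 1360 and 3269 for LSK and 3341 and 1256 for GMP. Within a genotype the sums were not ordered as the Cxcr2 levels. Among deficient arrays Cxcr2 was highest, at 1.30, on the first LSK array, where the sum was 1360. Such sums, here and below, are weighted to their brightest probes. Neither wild-type LSK array detected Mmp8, Cd177 or Itgb2l above background, and neither wild-type GMP array Retnlg, Mmp9 or Itgb2l. Erythroid markers moved with genotype too, as 5 of 12 were called higher in deficient LSK and 6 of 12 in deficient GMP. Their summed signal was 6.83 to 55.5 on the 4 wild-type arrays and 1542 to 8546 on the 4 deficient ones. The part of either marker group in the Cxcr2 result was not tested. The labels describe gates on lineage antigens, and the purity of the sorted cells was not tested.

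**Figure D2:**
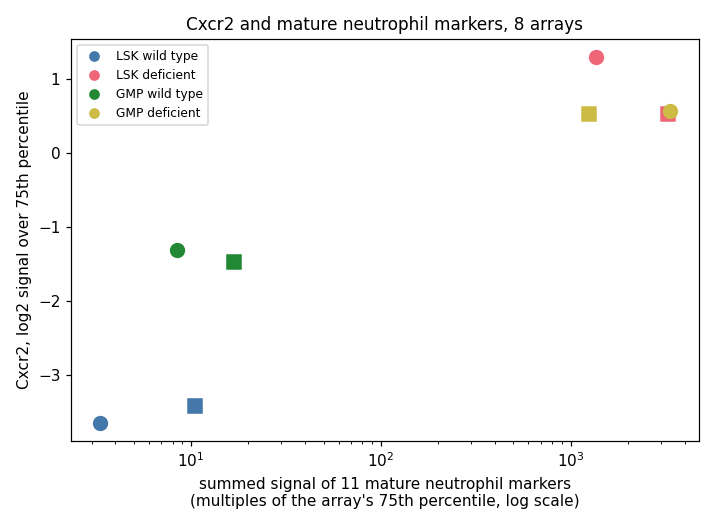
Cxcr2 level (log2 of the signal over the 75th percentile, vertical axis) against the summed signal of 11 mature neutrophil markers (multiples of the 75th percentile, log axis), 1 point per array. The 4 wild-type arrays lie at sums of 3.31 to 16.9 and the 4 deficient arrays at 1256 to 3341, with higher Cxcr2 levels.

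The promoter of Cxcr2 is shown with those of Cx3cr1, Ccr2 and Ccr9, the other members called in a comparison below, so that the letters upstream of each can be read beside its values. The sequences are from RefSeq's promoters on GRCm38.p6, of which 8 matched a member, and run 5′ to 3′ on the gene's strand from 250 bases before to 50 after its start: Cxcr2 at chr1:74153744-74154043 on the plus strand, Cx3cr1 at chr9:120068247-120068546 on the minus strand, Ccr2 at chr9:124101933-124102232 and Ccr9 at chr9:123766961-123767260, both on the plus strand. Capitals mark matches, on either strand, to 4 motifs of blood cell factors.
Cxcr2: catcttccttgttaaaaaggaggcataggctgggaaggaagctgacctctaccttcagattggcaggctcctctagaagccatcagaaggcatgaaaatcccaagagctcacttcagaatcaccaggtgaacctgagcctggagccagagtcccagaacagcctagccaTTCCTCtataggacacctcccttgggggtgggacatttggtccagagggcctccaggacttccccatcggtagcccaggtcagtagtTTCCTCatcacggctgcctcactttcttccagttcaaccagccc
Cx3cr1: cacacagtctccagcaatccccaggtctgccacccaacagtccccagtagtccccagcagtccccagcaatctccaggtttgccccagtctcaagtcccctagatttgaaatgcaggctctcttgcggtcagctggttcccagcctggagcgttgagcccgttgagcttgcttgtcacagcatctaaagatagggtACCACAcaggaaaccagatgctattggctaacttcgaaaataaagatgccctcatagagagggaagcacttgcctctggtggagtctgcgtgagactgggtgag
Ccr2: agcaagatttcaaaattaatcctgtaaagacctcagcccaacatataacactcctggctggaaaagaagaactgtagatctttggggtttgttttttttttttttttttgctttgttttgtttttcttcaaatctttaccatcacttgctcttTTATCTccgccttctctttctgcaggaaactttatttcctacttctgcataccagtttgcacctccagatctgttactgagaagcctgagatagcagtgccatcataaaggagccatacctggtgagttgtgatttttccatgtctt
Ccr9: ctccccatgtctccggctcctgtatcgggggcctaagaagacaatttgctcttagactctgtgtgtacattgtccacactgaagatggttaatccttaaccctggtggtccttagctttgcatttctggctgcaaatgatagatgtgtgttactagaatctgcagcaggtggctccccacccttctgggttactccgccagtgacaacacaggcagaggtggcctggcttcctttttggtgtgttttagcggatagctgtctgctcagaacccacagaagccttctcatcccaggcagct

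Cxcr2 held the letters GAGGAA, the core of PU.1 sites, on the reverse strand at −81 and again at 7 from its start. These letters stood in 4 of the 8 member promoters and in 28.3% of 32851 promoters of the same length. Cx3cr1 held the RUNX letters TGTGGT on the reverse strand at −54, which stood in 3 of 8 members and 16.8% of promoters. Ccr2 held the GATA letters AGATAA on the reverse strand at −97, which stood in 2 of 8 members and 11.2% of promoters. The C/EBP letters TTNCGNAA stood in 0 of 8 members and 2.47% of promoters, and the Ccr9 window held none of the 4 motifs. No match overlapped another, and both strands were searched.

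Ccr2, the receptor for CCL2 that releases monocytes from marrow, had the next largest genotype difference in LSK. Ccr2 in LSK read −3.76 and −2.90 on the wild-type arrays against 0.41 and 0.09 on the deficient ones. The GMP arrays read 2.43 and 1.84 against 4.78 and 1.97. The LSK groups did not overlap, while the second deficient GMP array lay between the wild-type ones. The LSK difference was 3.58 (SE 0.910, 95% interval 1.54 to 5.61, limma adjusted p = 0.311) and was not called. It was called only with slide row as a block (limma adjusted p = 0.0235). In GMP the difference was 1.24 (95% interval −0.79 to 3.28, adjusted p = 0.958), with row differences of 2.35 and 0.13, and it was −0.16 without the first deficient GMP array.

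Ccr2 was called between the populations. In wild-type marrow, Ccr2 was higher in GMP than in LSK by 5.46 (SE 0.910, 95% interval 3.43 to 7.50, limma adjusted p = 0.0167). In deficient marrow the GMP minus LSK difference was 3.13 (adjusted p = 0.174). It was 1.72 without the first deficient GMP array and 4.53 without the second, and it was called with normexp correction (2.80, adjusted p = 0.0449).

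Cx3cr1 encodes the fractalkine receptor of monocytes and macrophages. Its brighter probe in LSK gave −1.14 and −1.04 for the wild type against 0.70 and −0.07 for the deficient arrays. In GMP it gave 2.98 and 3.02 against 3.68 and 2.52. Both LSK groups lay below both GMP groups, deficient LSK lay above wild-type LSK, and the GMP groups overlapped. The wild-type GMP minus LSK difference was 4.09 (SE 0.680, 95% interval 2.57 to 5.61, limma adjusted p = 0.0166). In deficient marrow it was 2.79 (adjusted p = 0.148), and it was called with normexp correction (adjusted p = 0.0470) and without the first deficient LSK array (0.0345). The genotype differences were 1.40 in LSK (95% interval −0.12 to 2.92, adjusted p = 0.551) and 0.10 in GMP (−1.42 to 1.62).

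The other Cx3cr1 probe gave the same wild-type population difference within error, 3.91, with an adjusted p of 0.0745. The adjusted p-values of this probe come from a separate limma fit over the 39098 kept probes, in place of the 28088 features. In deficient GMP the probes went opposite ways. The first array exceeded the second by 1.16 at the brighter probe, and at the other probe the difference between them was −2.55. There the wild-type GMP arrays gave 0.08 and 0.03 and the deficient ones −3.21 and −0.66, which put its genotype difference at −1.99 (95% interval −3.99 to 0.00045, adjusted p = 0.962). Over the 8 arrays the levels of both probes correlated at r = 0.683, and over the 7 without the first deficient GMP array at r = 0.977. The direction of Cx3cr1 between genotypes in GMP was thus not settled by these probes.

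**Figure D3:**
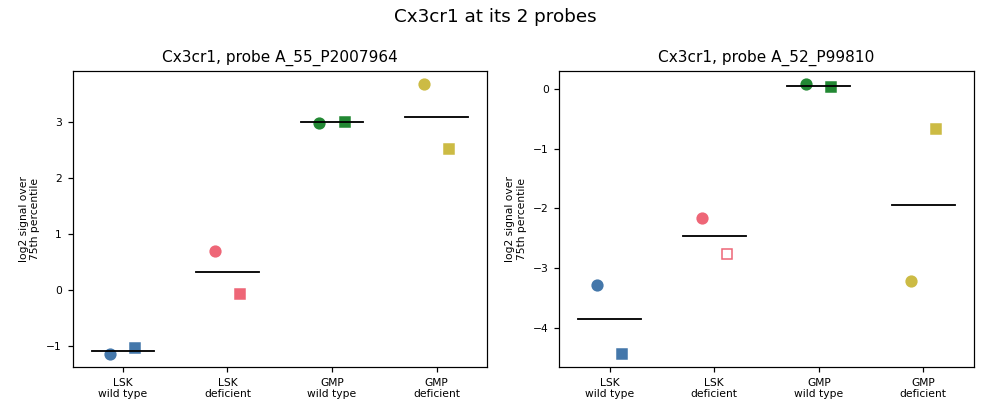
Level of Cx3cr1 on each array at its 2 probes, as log2 of the signal over the 75th percentile; circles are replicate 1, squares replicate 2, the open symbol is not well above background and black lines are group means. The first deficient GMP array is the higher of its pair at the left probe (3.68) and the lower at the right one (−3.21).

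Monocyte markers, 7 of 8 of them on the array, summed in LSK to 23.9 and 21.0 multiples of the 75th percentile for the wild type and 67.7 and 23.0 for the deficient arrays. In GMP the sums were 249 and 206 against 524 and 183. Of the 6 that passed the filter, 3 were called higher in wild-type GMP than in LSK, where 0.502% of features were. Between genotypes within a population 0 were called. The first deficient GMP array, highest for Ccr2 and for Cx3cr1 at its brighter probe, was highest for these markers as well. Their part in the Ccr2 and Cx3cr1 levels was not tested.

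Ccr9 and Ccr7 guide lymphoid cells, Ccr9 to the thymus and gut and Ccr7 to lymph nodes, and both were highest in wild-type LSK. Ccr9 in LSK read −0.23 and 0.07 on the wild-type arrays against −0.51 and −2.73 on the deficient ones. In GMP its levels were −6.44 and −5.49 against −4.27 and −4.23. On 4 arrays, namely both wild-type GMP, the first deficient GMP and the second deficient LSK, its probe was not well above background. In wild-type marrow Ccr9 was lower in GMP than in LSK, with a measured difference of −5.89 (95% interval −7.71 to −4.06, limma adjusted p = 0.00838). Ccr9 passed the filter through wild-type LSK alone, the high group of this comparison, so the call sets that group against one at background. The fold was taken against a floor, on each GMP array the higher of the probe's own signal and the lowest signal well above background. Against this floor Ccr9 was 46.4-fold lower in GMP. The floor is not the detection limit of this probe, so the fold is no strict lower bound. On the second wild-type GMP array the probe read −5.49, above the lowest such signal of −6.08, yet was not well above background. With normexp background correction the measured difference was −2.80 and stayed called.

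Between genotypes Ccr9 had opposite signs, −1.54 in LSK (95% interval −3.36 to 0.28, adjusted p = 0.559) and 1.72 in GMP (−0.11 to 3.54, adjusted p = 0.955). In GMP 1 deficient array and 0 wild-type arrays measured the probe, so the GMP value is largely between readings at background. The difference of these effects was 3.26 (95% interval 0.68 to 5.83), with an unadjusted p of 0.0184 and an adjusted p of 0.961 in limma. The LSK value rested on the second deficient array: it was −0.43 without it. Without the first it was −2.65 (adjusted p = 0.0479), but the 1 deficient array then left did not measure the probe, so −2.65 is not a measured difference.

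Ccr7 in LSK read 0.36 and 0.47 on the wild-type arrays against −0.31 and 0.21 on the deficient ones. In GMP it read −1.39 and −1.19 against −0.75 and −1.19. Its groups fell in the same order as those of Ccr9. The wild-type GMP minus LSK difference was −1.70 (adjusted p = 0.384), and the genotype differences were −0.47 in LSK (adjusted p = 0.733) and 0.32 in GMP. T and NK cell markers, 9 of 10 of them on the array, summed in LSK to 33.0 and 36.6 for the wild type and 22.4 and 66.1 for the deficient arrays. In GMP the sums were 53.6 to 116. The brightest T and NK marker in wild-type GMP was Nkg7, at a mean level of 6.56, while Cd3d was at −4.21. B cell markers summed to 9.29 to 19.4 over the 8 arrays. Of the 8 B cell markers that passed the filter, 1 was called higher in deficient LSK and 2 in deficient GMP, beside 0.239% and 0.146% of features. Dendritic cell markers, which also matter for Ccr7, summed to 155 to 348 on 7 arrays and 983 on the second deficient LSK array. Siglech, the brightest of them, reached 9.91 in deficient LSK. The part of these cells in the Ccr9 and Ccr7 levels was not tested.

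Cxcr4, the CXCL12 receptor that retains progenitors in marrow, showed no call in any comparison. Cxcr4 in LSK read 0.45 and 0.73 on the wild-type arrays against 0.16 and 1.03 on the deficient ones. The GMP levels were 2.24 and 1.51 against 2.61 and 1.78. All 4 GMP arrays lay above all 4 LSK arrays, and the genotypes overlapped in both populations. The genotype difference was 0.0022 in LSK (95% interval −1.53 to 1.53) and 0.32 in GMP, and the LSK interval leaves room for a change of either sign. The GMP minus LSK difference was 1.28 in wild-type (adjusted p = 0.746) and 1.60 in deficient marrow (adjusted p = 0.281).

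Cxcr3, the receptor of effector T cells for interferon-induced chemokines, read −1.59 and −2.05 in LSK on the wild-type arrays against −1.73 and −2.82 on the deficient ones, the last not well above background. In GMP it read −3.69 and −3.56 against −2.06 and −3.20. Wild-type GMP lay below every other array. The Cxcr3 difference between the wild-type populations was −1.81 (adjusted p = 0.456), and those between genotypes were −0.46 in LSK (adjusted p = 0.765) and 0.99 in GMP (adjusted p = 0.956).

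Ccr3, the eotaxin receptor of eosinophils, read −2.01 and −2.03 in LSK on the wild-type arrays against −2.26 and 0.37 on the deficient ones. In GMP it read −2.25 and −1.73 against −1.02 and −2.67. All 4 groups overlapped, and 1 array, the second deficient LSK, stood highest. The LSK genotype difference of 1.07 (adjusted p = 0.637) was −0.25 without that array. Eosinophil markers summed to 2.16 to 6.05 in the LSK arrays and 31.1 to 46.8 in the GMP arrays, and their part in the Ccr3 levels was not tested. Ccr1, a receptor for CCL3 and CCL5 on myeloid cells, gave −3.13 to −7.92 over the 8 arrays, all not well above background.

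**Figure D4:**
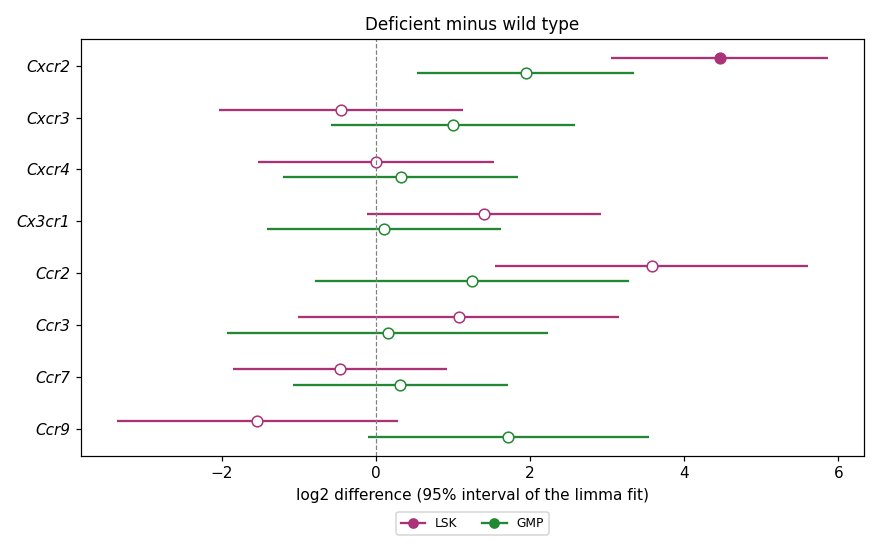
Deficient minus wild-type difference of each tested receptor in LSK and in GMP (log2), with lines for the 95% interval; filled symbols have an adjusted p under 0.05. Cxcr2 in LSK, at 4.46, is the 1 filled symbol.

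Over the receptors as a group, 5 of the 8 differences between genotypes were above 0 in LSK and 8 of 8 in GMP. Their medians were 0.54 and 0.66, beside medians of 0.11 and 0.16 over all features. In LSK the groups did not overlap for 3 receptors that were higher and 2 that were lower in the deficient arrays, where 16.4% and 21.1% of all features were higher or lower without overlap. In GMP 4 were higher without overlap and 0 lower, where 20.1% and 19.5% were. In GMP limma called 0 of the 8, where 0.146% of features were called, and 1, Cxcr2, had an unadjusted p under 0.05, beside 4.82% of features. For the difference between the genotype effects limma called 0 of the 8 and 0% of features, and 2 receptors had an unadjusted p under 0.05, beside 2.47% of features. These signs depend on the scaling: scaling to the median in place of the 75th percentile moved the median of all features from 0.11 to −0.46 in LSK and from 0.16 to −0.13 in GMP, and the differences of Cx3cr1 and Ccr3 in GMP and of Cxcr4 in LSK were then below 0.

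Between the populations in wild-type marrow 2 receptors, Ccr2 and Cx3cr1, were called higher in GMP and 1, Ccr9, which passed the filter through its high group alone, lower, where 1.86% of features were called, 0.502% higher and 1.36% lower. At an unadjusted p under 0.05 there were 6 receptors, beside 8.4% of features. Groups did not overlap for 4 receptors higher in GMP (28.3% of features) and 3 lower (20.2%). Cxcr2 was among the former, at 2.15 (95% interval 0.74 to 3.55, adjusted p = 0.183). In deficient marrow limma called 0 of the 8 and 0% of features. There, 4 receptors had an unadjusted p under 0.05, beside 16.7% of features. In deficient marrow 3 receptors were higher in GMP without overlap (18.4% of features) and 2 lower (18.5%), and Cxcr2 was at −0.37 (adjusted p = 0.782). The 2 comparisons share no arrays. The 3 wild-type calls were each lost under quantile normalization (adjusted p = 0.0659 for Cx3cr1, 0.0774 for Ccr2 and 0.149 for Ccr9) and without either wild-type LSK array (0.0788 to 0.175). With median scaling Ccr2 and Ccr9 were lost (0.0547 and 0.0633), and without a filter on dim probes Ccr2 and Cx3cr1 (0.0556 and 0.0581). Without a wild-type GMP array Ccr2 and Cx3cr1 were lost (0.0893 to 0.178), and Ccr9 without the first (0.0750) but not without the second (0.0449).

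**Figure D5:**
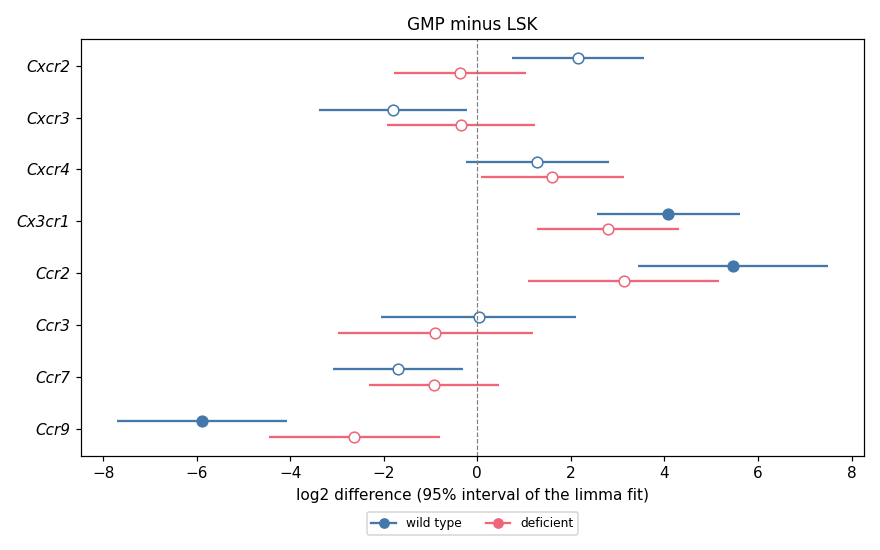
GMP minus LSK difference of each tested receptor in wild-type and in deficient marrow (log2), with lines for the 95% interval; filled symbols have an adjusted p under 0.05. In wild-type marrow Ccr2 (5.46), Cx3cr1 (4.09) and Ccr9 (−5.89) are filled, and in deficient marrow none is.

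The genes whose levels over the 8 arrays were most like those of each receptor were named by Pearson's r, as a description over arrays that share genotype, population and slide. For Cxcr2 they were Ifitm6 (r = 0.982) and Mmp8 (0.981), and for Ccr2 Gpr183 (0.992) and Gpr141 (0.983). For Cx3cr1 they were Nrp2 (0.994) and Ifi209 (0.992), and for Ccr9 Gimap6 and Hspa12b (both 0.992). The pairs were Lurap1 (0.989) and Ramp2 (0.988) for Ccr7, Slc12a5 (0.990) and Abcg1 (0.983) for Cxcr3, Mrpl11 (0.986) and Tmed3 (0.978) for Cxcr4, and Ccl8 (0.986) and Tuba3a (0.985) for Ccr3. Part of these readings lay at background. Neither wild-type LSK array measured Mmp8, and Nrp2 and Gpr183 were each measured on 1 array of each LSK group.

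The rest of the pathway was described by 4 lists. Of 9 other signalling receptors 6 passed the filter, and 0 were called in any of the 6 comparisons by limma. In LSK 2 of them had an unadjusted p under 0.05, Cxcr1 and Ccr6, beside 8.83% of features, and the list's median difference was 0.53. Cxcr1, the neutrophil receptor whose gene lies next to Cxcr2, had a difference of 1.95 in LSK (adjusted p = 0.550). In GMP both deficient arrays measured Cxcr1 and neither wild-type array did (limma adjusted p = 0.255). Against the floor used for Ccr9, Cxcr1 was 5.83-fold higher in the deficient GMP arrays, which is no strict lower bound. Cxcr1 passed the filter through deficient GMP alone.

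Of 25 ligands of these receptors 23 were on the array and 19 passed. Within a population 0 were called between genotypes by limma, where 0.239% of features were called in LSK and 0.146% in GMP. At an unadjusted p under 0.05 there were 2 in LSK and 6 in GMP, beside 8.83% and 4.82% of features. The median difference was 0.087 in LSK and 0.074 in GMP. Averaged over the populations 1 was called, where 0.602% of features were. Ccl6, a myeloid CC chemokine of rodents, rose by 3.04 (SE 0.499, limma adjusted p = 0.0302), with mean levels of −1.76 and 2.35 in LSK and 1.16 and 3.13 in GMP for wild-type and deficient arrays. Cxcl12, the CXCR4 ligand, read −3.07 and −0.58 in deficient GMP and was not measured on either wild-type GMP array (adjusted p = 0.350). The largest ligand difference in GMP was that of Ppbp, 6.93 (limma adjusted p = 0.617), from deficient levels of −4.24 and 3.76. Neither wild-type GMP array measured Ppbp. In GMP Pf4 differed by 3.84 (limma adjusted p = 0.207) and Cxcl2 by −2.54 (0.786). Ccl3, a ligand of CCR1, had a LSK difference of −3.43 (adjusted p = 0.437), which was −5.11 without the first deficient array and −1.74 without the second. Cx3cl1, the ligand of CX3CR1, was lower in wild-type GMP than in LSK by a difference of −3.73 (limma adjusted p = 0.0236), where its receptor was higher. Cx3cl1 passed the filter through wild-type LSK alone, the high group there, and 1 of the 2 wild-type GMP arrays measured it. The call thus sets that group against one partly at background.

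Of 23 genes that carry the signal on, 22 passed. Between genotypes limma called 1 of them in GMP and 0 in LSK, beside 0.146% and 0.239% of features. In LSK 1 had an unadjusted p under 0.05, beside 8.83% of features. The list's median difference was −0.034 in GMP and −0.17 in LSK. Fgr, a Src-family kinase of myeloid cells, was called higher in deficient GMP (limma adjusted p = 0.0336), and was not measured on either wild-type GMP array. Against the floor used for Ccr9 it was 31.9-fold higher in deficient GMP, which is no strict lower bound. Fgr passed the filter through deficient GMP alone, its high group there. The Fgr difference in LSK was 3.79 (adjusted p = 0.116), and on average over both populations Fgr was again the 1 gene of the list called. Of 15 genes that switch receptors off, 14 passed and 0 were called in any comparison by limma. In LSK 3 of the 14 differences were above 0 and 11 below, with a median of −0.88. At an unadjusted p under 0.05 there were 2, beside 8.83% of features. The regulators of G protein signalling Rgs1 and Rgs2 had LSK differences of −2.43 and −2.31 (adjusted p = 0.551 for each). Without the first deficient array these were −3.93 and −3.88, and without the second −0.92 and −0.74.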

How the data were processed

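Gene expression was measured on 8 single-colour Agilent arrays, 2 for each of 4 groups taken from the sample titles. The deposited scanner intensity is the background-subtracted processed signal of Feature Extraction 10.7.3.1, per the file headers, which name the build mm9. The authors also deposited a table of log2 values, which tracked the scanner levels centred on each probe's median at r = 0.9997 to 1.000. Its column medians were 0.12, −0.26, 0.041, 1.24, −0.13, −0.13, 0.31 and −0.11 in the order wild-type LSK, deficient LSK, wild-type GMP and deficient GMP, and what set them is not given in the sources used here.

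Control spots and 104 to 139 outlier spots per array were left out, and log2 of the intensity minus the array's 75th percentile was averaged over the spots of a probe. No spot was saturated. Of 55681 probes, the 39098 that some group measured above background on both its arrays were kept, and a gene took its brightest kept probe on average. Probes were named through their accession in the RefSeq GRCm38.p6 table, which gave 26582 probes 1 of 20145 symbols. The other features kept their accession or probe name. Group means were fitted to all 8 arrays with limma 3.58.1 in R 4.3.3 (4 residual and 5.76 prior degrees of freedom), with Benjamini-Hochberg adjustment over 28088 features. The code was tested on simulated data. Figures were drawn with matplotlib 3.10.9.

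Named genes were the 9 receptors, the 2 genes most correlated with each, and from the pathway lists the called genes and some of those with large differences. The receptors and lists were chosen with earlier results of these data known. Alternatives covered normexp correction on the median signal (the mean signal was not used here), quantile and median scaling, filters, probe averaging, array weights, a variance trend, blocks, the authors' table and each array left out.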

Additional observations from a re-analysis of the deposited data

How the results depend on the processing

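The count of receptors called between genotypes in LSK, 1 as reported, was 0 with normexp correction, quantile normalization, median scaling, no filter on dim probes, array weights or a fit of the 2 groups alone, and 2 with slide row as a block. For Cxcr2 these gave limma adjusted p-values of 0.118, 0.0543, 0.272, 0.0981, 0.137 and 0.0994. Leaving out an array gave counts of 0 to 2. The average over both populations, 1 as reported, was 0 with median scaling, 2 with slide row as a block and 0 to 2 with an array left out. In GMP and for the difference of the effects the count was 0 under all alternatives run. Between the wild-type populations the count of 3 was 0 with quantile normalization, 1 with median scaling, 1 without a filter, 6 with array weights and 0 to 3 with an array left out. In deficient marrow the count of 0 was 2 with normexp and 0 to 1 with an array left out. Over all features the calls ranged over 0 to 2827 in LSK (67 as reported), 0 to 193 in GMP (41), 33 to 905 for the average (169), 0 to 14 for the difference of the effects (0), 17 to 2217 between wild-type populations (522) and 0 to 4258 between deficient ones (0). Receptors that were not called changed sign under some settings, and the cause was not tested. In LSK, Cxcr3 was 0.58 with normexp and Cxcr4 was −0.42 with normexp, −0.57 with median scaling and −0.046 in the authors' deposited table. In GMP, median scaling gave −0.19 for Cx3cr1 and −0.14 for Ccr3, and the mean over probes gave −0.95 for Cx3cr1. On average, Cxcr3 was −0.36 with quantile and −0.16 with median scaling, Ccr9 −0.55 and −0.34, and Cxcr4 −0.15 with normexp and −0.27 with median scaling. Between deficient populations, median scaling gave 0.24 for Cxcr2 and 0.25 for Cxcr3, and quantile normalization 0.67 for Cxcr3. Without the second deficient LSK and the first deficient GMP arrays together, Cxcr3 was 0.091, Cxcr4 −0.43 and Ccr3 −0.25 in LSK. In GMP Cxcr4 was then −0.097, Cx3cr1 −0.48, Ccr2 −0.16 and Ccr3 −0.68, and on average Cxcr4 was −0.26 and Ccr3 −0.46.

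With 1 array left out, differences between genotypes in LSK ranged over −1.0 to 0.091 for Cxcr3, −0.43 to 0.43 for Cxcr4 and −0.25 to 2.39 for Ccr3. In GMP they ranged over −0.097 to 0.74 for Cxcr4, −0.48 to 0.68 for Cx3cr1, −0.16 to 2.65 for Ccr2 and −0.68 to 0.97 for Ccr3. The average ranged over −0.015 to 0.55 for Cxcr3, −0.055 to 0.38 for Cxcr4, −0.048 to 1.27 for Ccr3, −0.20 to 0.055 for Ccr7 and −0.47 to 0.64 for Ccr9, and the difference of the effects over −0.11 to 0.75 for Cxcr4 and −2.24 to 0.40 for Ccr3. GMP minus LSK ranged over −0.24 to 0.29 for Ccr3 in wild-type marrow, and in deficient marrow over −0.75 to 0.015 for Cxcr2, −0.93 to 0.21 for Cxcr3 and −2.21 to 0.42 for Ccr3. A lone array left in a group was assumed to vary like the others.

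Whether replicate numbers pair the samples cannot be settled with 2 arrays per group. Deviations of same-numbered arrays correlated at −0.34 between the LSK genotypes and 0.26 between the GMP genotypes. The other pairs of groups gave −0.13 to 0.34. With replicate number as a block the LSK count was 1, with an adjusted p of 0.0295 for Cxcr2. With the numbers crossed in LSK, an alternative chosen after seeing the data, 1 receptor was called in LSK. Depth of signal left Ccr1 untested. It left Ccr9 in wild-type GMP at background, and the fold given for Ccr9 against the floor is no strict lower bound.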

Other observations

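Of the 9 receptor genes 5 lie on chromosome 9, 2 on chromosome 1, 1 on chromosome 11 and 1 on X. Ccr3 and Ccr2 are neighbours on chromosome 9, and Cx3cr1 lies beside Ccr8, while Cxcr2 and Cxcr1 are neighbours on chromosome 1. Ccr2 had a LSK genotype difference of 3.58 and Ccr3, beside it, one of 1.07, neither of which was called.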
